A study of Mus musculus with 8 samples.

Results

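The cytokine genes described here are 10 transcripts that resting macrophages can carry: the inflammatory cytokines *Tnf*, *Il6*, *Il1a*, *Il1b*, *Il18* and *Il12b*, the regulatory cytokines *Il1rn*, *Il10* and *Tgfb1*, and the macrophage growth factor *Csf1*. They were chosen by name, with earlier results of these data known, and all 10 were found by symbol among the 48795 genes measured. Their polyadenylated RNA was sequenced in peritoneal macrophages (pMacs) obtained by lavage of the peritoneal cavity and described by the study as purified, from 4 WT (C57BL/6) and 4 CD1d-KO mice, 1 library per mouse. The study enriched pMacs with F4/80 beads in other experiments, and whether it did so for these libraries is not stated in the sources used here. The labels state no stimulus, and the study treats these pMacs as resting cells. The libraries carry the numbers 1, 2, 3 and 5 in each genotype, which gives 4 WT and CD1d-KO pairs. CD1d is the molecule that presents lipid antigens to NKT cells. The study worked with adult mice matched for age and sex, used littermates as controls for this experiment, and kept a germline deletion of *Cd1d1* and its neighbour *Cd1d2* as well as a line made with a floxed CD1d allele and PGK-Cre, and which line gave these libraries is not stated in the sources used here. Loss of CD1d throughout the body also leaves mice without NKT cells, so the pMacs of CD1d-KO mice came from a cavity that differed in other cells as well.

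Macrophages release cytokines to recruit and instruct other cells, and most of the genes are switched on by pattern recognition receptors through NF-kB and AP-1. IL-1α and IL-1β act on the same receptor, which the antagonist encoded by *Il1rn* occupies without signalling. IL-1β and IL-18 are made as inactive precursors that caspase-1 cuts, TNF is shed from the cell surface by ADAM17, and TGF-β1 is held in a latent complex until integrins or other activators free it. IL-10 and TGF-β1 restrain macrophage activation, and CSF1 signals through CSF1R to keep macrophages alive.

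The 4 genes that the rest of the account turns on, *Il1a*, *Il1b*, *Il6* and *Tnf*, are shown by the start of their genes, since the first 3 followed each other from library to library and *Tnf* did not. The RefSeq table of GRCm38.p6 held a promoter for 9 of the 10 cytokine genes and none for *Il10*. Each window runs 5′ to 3′ in the direction of the gene, from 250 bases before the start to 50 after it. The *Il1a* window is chr2:129309923-129310222 and the *Il1b* window chr2:129371090-129371389, both on the minus strand. The *Il6* window is chr5:30012864-30013163 on the plus strand, and the *Tnf* window chr17:35201958-35202257 on the minus strand. Capitals mark 4 motifs searched on both strands, the letters GGNNTTNCC of a kappa B-like element, TGANTCA of AP-1, TTGNGNAA of a C/EBP-like element and TATAAA of a TATA box. No matches overlapped in these windows.
*Il1a* promoter: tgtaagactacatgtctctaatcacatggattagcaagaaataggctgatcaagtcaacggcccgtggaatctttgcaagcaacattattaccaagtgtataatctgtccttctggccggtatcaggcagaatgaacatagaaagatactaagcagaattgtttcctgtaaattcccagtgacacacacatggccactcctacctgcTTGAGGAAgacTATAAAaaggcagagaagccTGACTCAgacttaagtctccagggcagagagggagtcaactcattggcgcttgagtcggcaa
*Il1b* promoter: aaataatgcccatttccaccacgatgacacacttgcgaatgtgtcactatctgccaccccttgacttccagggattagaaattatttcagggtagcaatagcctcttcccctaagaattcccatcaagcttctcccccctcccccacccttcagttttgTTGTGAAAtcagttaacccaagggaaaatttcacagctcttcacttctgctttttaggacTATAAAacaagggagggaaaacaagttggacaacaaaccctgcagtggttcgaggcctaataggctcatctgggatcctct
*Il6* promoter: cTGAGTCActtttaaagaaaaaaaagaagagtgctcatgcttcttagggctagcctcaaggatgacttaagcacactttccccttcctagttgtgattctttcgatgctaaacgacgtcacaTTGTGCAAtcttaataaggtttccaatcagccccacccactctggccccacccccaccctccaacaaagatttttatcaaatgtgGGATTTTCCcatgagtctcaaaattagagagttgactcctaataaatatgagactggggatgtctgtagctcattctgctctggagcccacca
*Tnf* promoter: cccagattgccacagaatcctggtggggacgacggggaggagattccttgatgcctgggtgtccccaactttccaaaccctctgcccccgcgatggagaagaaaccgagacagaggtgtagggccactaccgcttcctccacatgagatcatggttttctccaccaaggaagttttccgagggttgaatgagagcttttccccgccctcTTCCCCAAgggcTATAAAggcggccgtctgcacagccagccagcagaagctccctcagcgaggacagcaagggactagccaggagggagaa

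The *Il1a* window held TATAAA from base -32, TTGNGNAA from base -43 and TGANTCA from base -12, counted from the start of the gene. *Il1b* and *Tnf* each held TATAAA, from bases -31 and -29, and TTGNGNAA, from bases -91 and -41. *Il6* held GGNNTTNCC from base -43, TTGNGNAA from base -128 and TGANTCA from base -249, but not TATAAA. All 4 windows therefore held the C/EBP-like letters. They were picked from 11 windows of 9 cytokine genes, of which 6 held these letters. The 6 include overlapping windows of *Il1rn* that share the same match, so they are not 6 separate sites. The windows of *Csf1*, *Il12b*, *Il18* and *Tgfb1* did not hold the C/EBP-like letters. Of 32817 RefSeq promoters of the same length, 13.3% held these letters, 13.6% held TATAAA, 16% the kappa B-like letters and 7.81% the AP-1 letters. These are matches of letters and do not show binding.

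Between 13698864 and 19059432 expected counts fell on genes per library. Macrophage identity was checked first. *Adgre1*, which encodes F4/80, reached 365 ± 48.5 TPM in WT and 390 ± 53.7 TPM in CD1d-KO pMacs (SD, n = 4), and *Gata6*, the regulator of large peritoneal macrophages, 20.5 ± 7.87 and 19.0 ± 6.60 TPM. Of 11 large peritoneal macrophage markers 0 were called, beside 0.0383% of all tested genes. At an unadjusted p under 0.05, 4 of the 11 were higher and 1 lower in CD1d-KO, beside 7.35% and 5.01% of all tested genes. *Timd4*, *Garnl3*, *Vsig4* and *Selp* were higher (log2 fold changes 0.39, 0.65, 0.38 and 0.43) and *Cd5l* lower (-0.46), with adjusted p-values from 0.194 to 0.357 in edgeR. The summed normalized counts of the 11 markers ran from 107000 to 119000 in WT and from 110000 to 128000 in CD1d-KO libraries. TPM is a share of all transcripts corrected for transcript length, so it compares genes. Summed normalized counts of 8 B cell markers ranged from 3300 to 9040 in WT and from 2240 to 15500 in CD1d-KO libraries, and those of 9 T and NK cell markers from 54.4 to 93.2 and from 38.6 to 116. Of 6 neutrophil markers *Ly6g*, the defining one, was at 0 in all 8 libraries and *S100a9* reached at most 1.05 normalized counts. The 2 that could be tested were higher in CD1d-KO in 4 of 4 pairs without passing the test, *S100a8* with 44.1 to 51.2 normalized counts in WT and 80.5 to 89.5 in CD1d-KO libraries (log2 fold change 0.83, adjusted p = 0.101 from edgeR) and *Csf3r*, which macrophages also express, with 2508 to 4663 and 3983 to 6070 (0.37, adjusted p = 0.164). The part of such cells in the cytokine levels was not tested. The deleted gene *Cd1d1* had 67.7 to 174 normalized counts in WT libraries and 0 to 1.14 in CD1d-KO replicates 2, 3 and 5. The library labelled CD1d-KO replicate 1 had 60.2, which goes against its label, so results of the 10 cytokine genes are also given without replicate 1 where they turn on it.

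The cytokine genes spanned a wide range of levels. In WT pMacs *Il1b* came first at 460 ± 212 TPM (SD, n = 4), followed by *Il1rn* at 421 ± 339, *Tgfb1* at 416 ± 97.4 and *Il1a* at 223 ± 64.8 TPM. The next were *Csf1* at 85.8 ± 25.5, *Tnf* at 71.4 ± 19.8, *Il6* at 59.3 ± 27.2 and *Il18* at 30.2 ± 22.3 TPM. *Il10* reached 4.31 ± 3.35 TPM, and *Il12b*, the shared p40 subunit of IL-12 and IL-23, 0.215 ± 0.250 TPM. The WT ranges of neighbours overlapped between *Il1b* and *Il1rn*, between *Il1rn* and *Tgfb1*, and along the run from *Csf1* through *Tnf* and *Il6* to *Il18*. They did not overlap between *Tgfb1* and *Il1a*, *Il1a* and *Csf1*, *Il18* and *Il10*, or *Il10* and *Il12b*. Among all genes *Il1b* ranked 258th by WT level. In CD1d-KO pMacs the first 3 were *Il1rn* at 462 ± 266, *Il1b* at 441 ± 249 and *Tgfb1* at 333 ± 40.1 TPM, and *Il1b* was above *Il1rn* in 5 of the 8 libraries.

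**Figure D1:**
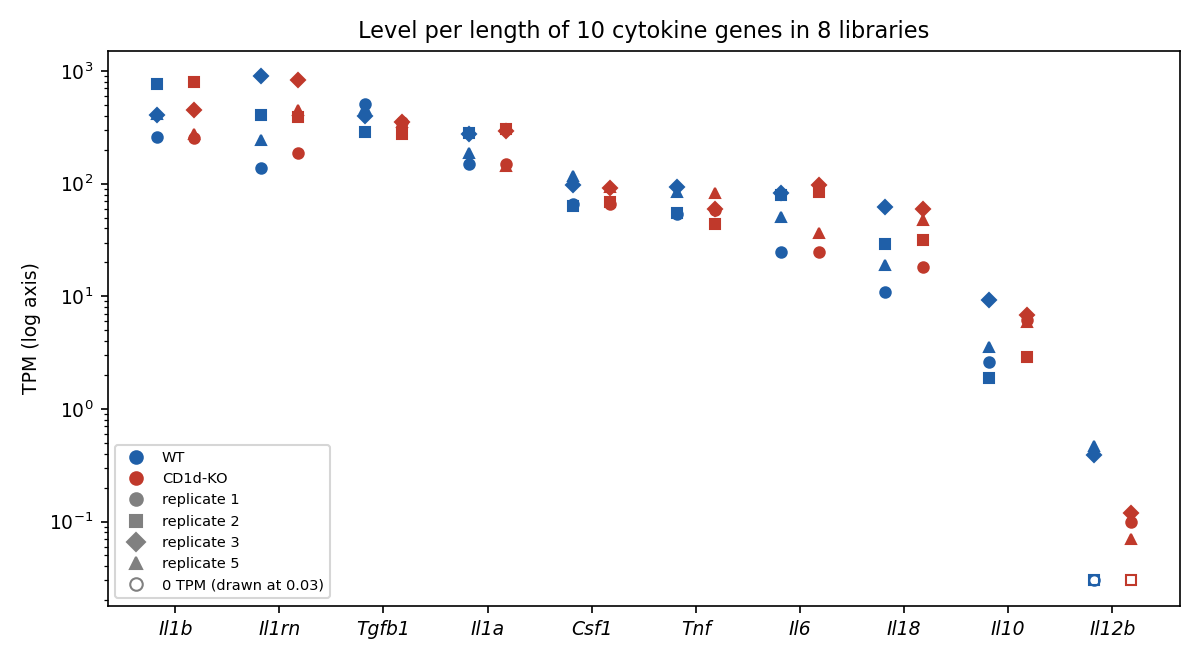
Level of the 10 cytokine genes as TPM on a log axis, with genes ordered by their WT mean, WT libraries in blue, CD1d-KO libraries in red and a marker shape for each replicate number. Values of 0 are drawn as open symbols at the bottom, and the 2 genotypes overlap in every gene, most visibly in the widely spread *Il1rn*, *Il6* and *Il18*.

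The question put to each cytokine gene was whether its resting level differed between WT and CD1d-KO pMacs. None passed the threshold of an adjusted p under 0.01 with a fold change above 1.5. The quasi-likelihood test of edgeR, with genotype and replicate number in the model, called 0 of the 9 cytokine genes that passed the filter on low counts, beside 0.0383% of the 13040 genes tested. DESeq2 and limma also called 0 of the 9, and the share of all genes that they called is not given here. At an unadjusted p under 0.05 there were 2 of 9 (22.2%), beside 12.4% of all genes. Of these, *Il18* was higher and *Tgfb1* lower in CD1d-KO pMacs, where 7.35% of all genes were higher and 5.01% lower at that p. Adjusted p-values over all genes ran from 0.319 to 0.965. The median log2 fold change of the 9 was -0.02, beside 0.00 for all tested genes. For 6 of the 9 the 95% interval lay within a 1.5-fold change in either direction, and for *Il1rn*, *Il18* and *Il10* it did not. In none of the 9 did the WT and CD1d-KO libraries separate without overlap, as they did in 1.96% of all tested genes. In bulk RNA, fewer cells of a type and less RNA per cell cannot be told apart.

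**Figure D2:**
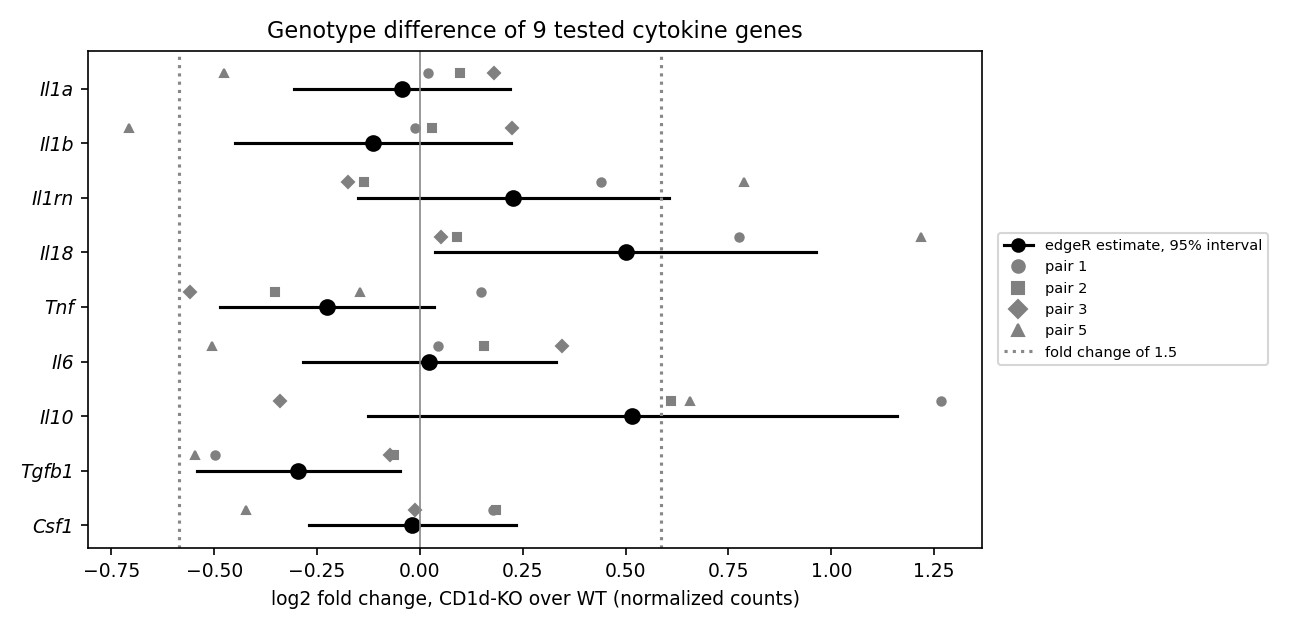
Log2 fold change of CD1d-KO over WT for the 9 tested cytokine genes, with the edgeR estimate and its 95% interval in black, grey symbols for the 4 single pairs and dotted lines at a 1.5-fold change. Only the intervals of *Il18* and *Tgfb1* leave out 0, and pair 5 lies far to one side for *Il1a*, *Il1b*, *Il1rn*, *Il18* and *Il6*.

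The agonists of the IL-1 receptor differed less between genotypes than among mice of 1 genotype. *Il1a* (ENSMUSG00000027399), on chromosome 2 of GRCm38 from 129299610 to 129309972, gave 2440, 5663, 5392 and 3515 normalized counts in WT replicates 1, 2, 3 and 5 and 2472, 6056, 6110 and 2527 in the CD1d-KO replicates. Each CD1d-KO library lay close to the WT library of its number, with pair 5 farthest apart. Its log2 fold change was -0.04 (standard error, SE, 0.11, 95% interval -0.31 to 0.22, adjusted p = 0.924 from edgeR). *Il1b* (ENSMUSG00000027398), on the same chromosome and strand from 129364570 to 129371139, gave 2701, 10008, 5217 and 5095 normalized counts in WT and 2680, 10213, 6092 and 3121 in CD1d-KO replicates. Replicate 2 was the highest and replicate 1 the lowest in both genotypes, and the CD1d-KO level was 0.992 to 1.17 times the WT level in pairs 1, 2 and 3 and 0.613 times in pair 5. The log2 fold change of *Il1b* was -0.11 (SE 0.14, adjusted p = 0.806 from edgeR), with a 95% interval from -0.45 to 0.22.

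The antagonist spread more widely than the agonists. *Il1rn* (ENSMUSG00000026981), on chromosome 2 from 24336853 to 24351494, gave 1935, 6740, 15893 and 3764 normalized counts in WT replicates 1, 2, 3 and 5 and 2627, 6130, 14074 and 6503 in CD1d-KO replicates. Replicate 3 stood highest and replicate 1 lowest in both genotypes, 8.21-fold apart in WT and 5.36-fold in CD1d-KO. The CD1d-KO library was the higher one in pairs 1 and 5 and the lower one in pairs 2 and 3, with a log2 fold change of 0.23 (SE 0.16, adjusted p = 0.633 from edgeR). It was 0.155 without replicate 1, 0.353 without replicate 2, 0.365 without replicate 3, 0.0403 without replicate 5 and 0.0502 without the replicate number in the model. Summed over *Il1a*, *Il1b*, *Il1rn* and *Il18*, normalized counts were 7130 and 7880 in pair 1, 22600 and 22600 in pair 2, 26900 and 26700 in pair 3, and 12500 and 12400 in pair 5, WT first. The near-equal sum of pair 5 joins lower *Il1a* and *Il1b* with higher *Il1rn* and *Il18* in the CD1d-KO library.

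*Il18* (ENSMUSG00000039217), an IL-1 family cytokine that drives IFN-γ production by T and NK cells, lies on chromosome 9 from 50554827 to 50581840. It had 58.0, 193, 399 and 118 normalized counts in WT replicates 1, 2, 3 and 5 and 99.4, 206, 413 and 275 in CD1d-KO replicates. The CD1d-KO library was higher in 4 of 4 pairs, by 1.71-fold and 2.33-fold in pairs 1 and 5 and by 1.06-fold and 1.04-fold in pairs 2 and 3, and the ranges of the genotypes overlapped. The log2 fold change was 0.50 (SE 0.20, 95% interval 0.04 to 0.96, adjusted p = 0.369 from edgeR). *Il18* and *Tgfb1* kept 1 direction in all 4 pairs, 22.2% of the 9 genes, beside 20.7% of all tested genes. Without replicate 1, whose CD1d-KO library held *Cd1d1* counts, the log2 fold change of *Il18* was 0.42 (adjusted p = 0.642 from edgeR), and without replicate 5 it was 0.27 (adjusted p = 0.720).

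*Tnf* (ENSMUSG00000024401), on chromosome 17 from 35199381 to 35202007, encodes the cytokine that opens many inflammatory responses. It had 717, 916, 1497 and 1304 normalized counts in WT and 795, 717, 1016 and 1179 in CD1d-KO replicates 1, 2, 3 and 5. CD1d-KO libraries were the lower ones in pairs 2, 3 and 5 and the higher one in pair 1, with overlapping ranges. The log2 fold change was -0.23 (SE 0.11, adjusted p = 0.461 from edgeR), -0.35 without replicate 1 (adjusted p = 0.376) and -0.11 without replicate 3 (adjusted p = 0.812). *Il6* (ENSMUSG00000025746), on chromosome 5 from 30013114 to 30019981, encodes a cytokine of the acute phase response. It had 189, 792, 865 and 477 normalized counts in WT and 195, 882, 1099 and 336 in CD1d-KO replicates. The CD1d-KO library was the higher one in pairs 1, 2 and 3 and the lower one in pair 5, at 0.704 times WT, replicate 1 was lowest in both genotypes, and the log2 fold change was 0.02 (SE 0.13, 95% interval -0.28 to 0.33, adjusted p = 0.965 from edgeR).

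Of the regulatory cytokines, *Tgfb1* had the smallest p of the 9. *Tgfb1* (ENSMUSG00000002603), on chromosome 7 from 25687002 to 25705077, gave 8715, 6108, 8326 and 9590 normalized counts in WT and 6171, 5848, 7914 and 6569 in CD1d-KO replicates 1, 2, 3 and 5. CD1d-KO libraries were lower in 4 of 4 pairs, at 0.708 and 0.685 times WT in pairs 1 and 5 and at 0.957 and 0.951 times in pairs 2 and 3, and the ranges of the genotypes overlapped. The log2 fold change was -0.30 (SE 0.11, 95% interval -0.54 to -0.05, adjusted p = 0.319 from edgeR). Without replicate 1 it was -0.23 (adjusted p = 0.642 from edgeR) and without replicate 5 -0.21 (adjusted p = 0.687). The distances within pairs were thus largest in pairs 1 and 5 for both *Il18* and *Tgfb1*, in opposite directions.

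*Il10* (ENSMUSG00000016529), on chromosome 1 from 131019845 to 131024974, was scarce. It had 27.5, 24.5, 118 and 42.9 normalized counts in WT and 66.3, 37.5, 93.3 and 67.7 in CD1d-KO replicates. WT replicate 3 was the highest library, and the CD1d-KO library was higher in the other 3 pairs. Its log2 fold change was 0.52, with the largest standard error (SE) of the 9 genes (0.28, 95% interval -0.13 to 1.16, adjusted p = 0.500 from edgeR), 0.25 without replicate 1 and 0.86 without replicate 3 (adjusted p = 0.836 and 0.394), and 0.33 without the replicate number in the model. The summed B cell markers in replicates 1, 2, 3 and 5 were 7970, 3300, 7460 and 9040 in WT and 9800, 2240, 6280 and 15500 in CD1d-KO libraries. Both *Il10* and these markers were lowest in replicate 2 of each genotype, whereas the marker sum was highest in replicate 5 and *Il10* in replicate 3, and the part of B cells in the *Il10* level was not tested.

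*Csf1* (ENSMUSG00000014599), on chromosome 3 from 107741048 to 107760469, gave 1380, 1636, 2698 and 2891 normalized counts in WT and 1560, 1858, 2676 and 2158 in CD1d-KO replicates. The genotypes overlapped widely, with a log2 fold change of -0.02 (SE 0.11, 95% interval -0.27 to 0.23, adjusted p = 0.965 from edgeR). *Il12b* (ENSMUSG00000004296), on chromosome 11 from 44400063 to 44414033, was too low to test. Its expected counts were 0, 0, 6 and 8 in WT replicates 1, 2, 3 and 5 and 2, 0, 2 and 1 in CD1d-KO replicates, so that only WT replicates 3 and 5 exceeded 3 counts. Summed markers of monocytes, small peritoneal macrophages and dendritic cells ran from 1390 to 2430 normalized counts in WT and from 1170 to 2740 in CD1d-KO libraries. The sum was lowest in replicate 2 and highest in replicate 5 of each genotype, an order not shared by all its markers. *Irf4*, a large part of the sum, had this order, with 848, 616, 1048 and 1232 in WT and 952, 526, 931 and 1633 in CD1d-KO replicates. *Cd209a* was instead lowest in replicate 1 (61.8 and 75.3) and highest in replicate 3 (246 and 269), WT first. The part of such cells in the levels of *Tnf* and *Csf1* was not tested.

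The level of the cytokine genes followed the replicate number. In the same edgeR model, the test of the replicate number passed an adjusted p under 0.01 for 5 of the 9 genes, *Il6*, *Il1rn*, *Il1b*, *Il1a* and *Il18*, beside 3.93% of all tested genes. Adjusted p-values were 0.00315 for *Il6*, 0.00354 for *Il1rn*, 0.00540 for *Il1b*, 0.00571 for *Il1a* and 0.00870 for *Il18*, all from edgeR. *Csf1* and *Tnf* had adjusted p = 0.0197 and 0.0302, *Il10* 0.0545 and *Tgfb1* 0.193. The replicate number took 97.2% of the sum of squares of log2 CPM (library-scaled counts) of *Il6*, 94.9% of *Il1a*, 94.6% of *Il1rn*, 93.5% of *Il1b*, 89.5% of *Csf1*, 85.0% of *Il18*, 78.6% of *Tnf*, 73.4% of *Il10* and 46.6% of *Tgfb1*. The median of the 9 was 89.5%, beside 64.8% over all tested genes, where a number has 3 degrees of freedom and the genotype 1. The genotype took at most 12.5% in 8 of the genes and 33.4% in *Tgfb1*.

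**Figure D3:**
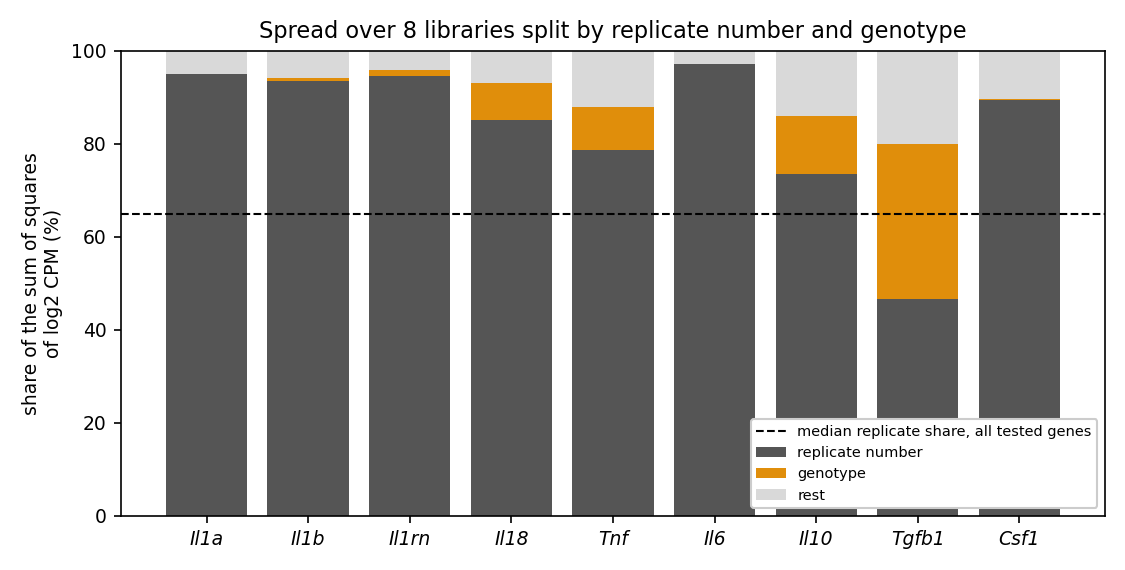
Sum of squares of log2 CPM over the 8 libraries, split into the shares of replicate number (dark), genotype (orange) and the rest (light) for each of the 9 tested cytokine genes. The dashed line is the median share of the replicate number over all tested genes, 64.8%, and *Tgfb1*, at 46.6%, is the 1 gene of the 9 whose dark part ends below it.

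This count depended on replicates 1 and 3. Without replicate 1 the number passed for 0 of the 9 genes and for 0.363% of 12964 tested genes, with adjusted p-values of the 9 from 0.0239 to 0.160, and without replicate 3 for 0 of the 9 and for 0 of 13176 genes. It passed for 4 of the 9 without replicate 2, beside 5.56% of 13205 genes, and for 6 without replicate 5, beside 3.08% of 13052 genes. DESeq2 passed 7 of 9, beside 13.0% of 13206 genes. The labels do not say what a number stands for (a day, a litter or a preparation), and these cannot be told apart here. Replicate 1 also held the deepest library of each genotype, with 19059432 and 18631659 expected counts against at most 14740045 elsewhere, and the part of depth was not tested.

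The ratio of the highest to the lowest number, as geometric means of both genotypes, was 6.63 for *Il1rn*, 5.23 for *Il18*, 5.04 for *Il6*, 3.76 for *Il1b*, 3.31 for *Il10*, 2.38 for *Il1a*, 1.83 for *Csf1*, 1.64 for *Tnf* and 1.36 for *Tgfb1*. *Il1b* was highest in replicate 2 of both genotypes, and *Il6*, *Il1rn*, *Il18* and *Il10* in replicate 3 of both. For the other 4 the highest replicate differed between the genotypes, 2 in WT and 3 in CD1d-KO for *Il1a*, 3 and 5 for *Tnf*, and 5 and 3 for *Tgfb1* and *Csf1*. By those means replicate 1 was the lowest for 7 genes and replicate 2 for *Il10* and *Tgfb1*. Across the 8 libraries, with genotype means removed from log2 values, Pearson's r was 0.991 between *Il1rn* and *Il18*, 0.966 between *Il6* and *Il1a*, 0.908 between *Il1a* and *Il1b*, and 0.873 between *Tnf* and *Csf1*. *Il1b* and *Tnf* had r = -0.03, and *Il1b* and *Tgfb1* r = -0.42. These coefficients describe 8 libraries that share 4 numbers.

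**Figure D4:**
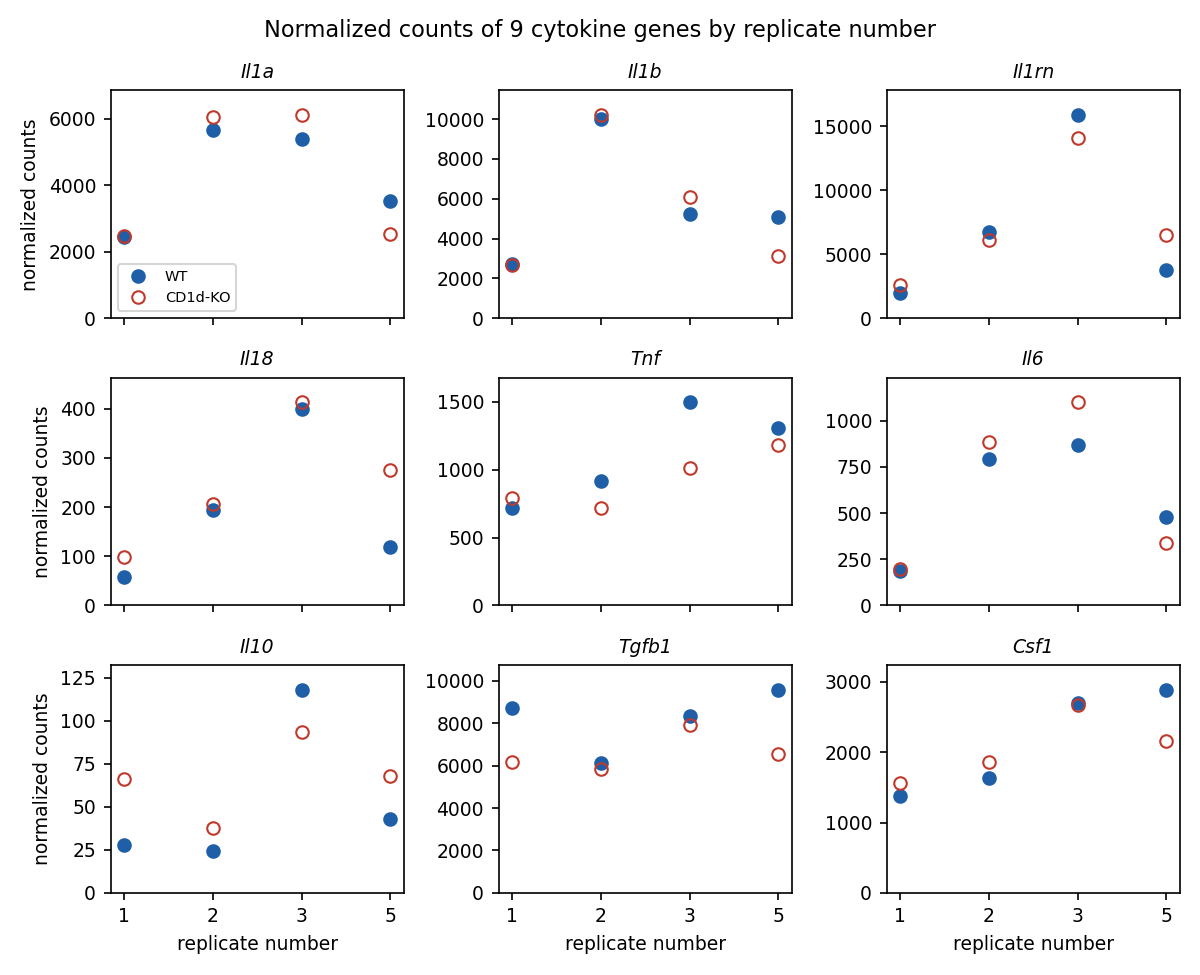
Normalized counts of the 9 tested cytokine genes by replicate number on axes that start at 0, with WT libraries as filled blue and CD1d-KO libraries as open red circles. The circles of numbers 1 and 2 lie close together for *Il6*, *Il1a* and *Il1b* and those of number 5 apart, and *Tgfb1* has its widest gaps at numbers 1 and 5.

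By the same measure, the 3 tested genes most like *Il1b* were *Ndufb9* (r = 0.990), *Tspan31* (0.987) and *Ube2r2* (0.982), and those most like *Tnf* were *Tmem256* (0.986), *Nrp2* (0.982) and *Ahcyl2* (0.979). The 100th gene in each order still had r = 0.911 and 0.902. *Ndufb9* ran only from 377 to 491 normalized counts, so a gene can match the order of the libraries without matching the range of *Il1b*.

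Receptors and soluble binders of the cytokines were examined next. Of 17 such genes 13 were tested and 0 were called (beside 0.0383% of all tested genes), with 1 higher and 1 lower at an unadjusted p under 0.05 (beside 12.4% in either direction) and a median log2 fold change of 0.03. *Il18bp*, which encodes the soluble protein that neutralizes IL-18, had 279, 432, 548 and 393 normalized counts in WT and 406, 483, 798 and 807 in CD1d-KO replicates 1, 2, 3 and 5. The CD1d-KO library was the higher one in each pair (log2 fold change 0.57, SE 0.13, adjusted p = 0.144 from edgeR). *Tgfbr1*, the signalling receptor of TGF-β, had a log2 fold change of -0.23 (SE 0.07, adjusted p = 0.255 from edgeR), while its partner *Tgfbr2* had 0.06 (adjusted p = 0.806).

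No receptor of the other cytokines passed the test. *Csf1r*, which macrophages need for survival, reached 972 ± 133 TPM in WT and 945 ± 132 TPM in CD1d-KO pMacs (SD, n = 4; adjusted p = 0.898 from edgeR). The TNF receptors *Tnfrsf1b* and *Tnfrsf1a* stood at 325 ± 71.8 and 152 ± 8.93 TPM in WT (log2 fold changes 0.12 and -0.08). *Il10ra* had 60.4 ± 2.19 and *Il6ra* 22.2 ± 8.37 TPM in WT, with log2 fold changes of 0.03 and -0.18. The signalling IL-1 receptor *Il1r1* was nearly absent at 0.0400 ± 0.0432 TPM in WT and 0.120 ± 0.0560 TPM in CD1d-KO and was not tested, whereas the decoy receptor *Il1r2* had 1.49 ± 0.811 and 1.82 ± 0.647 TPM (log2 fold change 0.36, adjusted p = 0.753 from edgeR).

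Of 18 genes that process, release or activate the cytokines, 18 were tested and 0 called, with 3 higher and 2 lower at an unadjusted p under 0.05 (beside 7.35% higher and 5.01% lower of all tested genes) and a median log2 fold change of 0.03. The higher ones were *Casp1*, the caspase that matures IL-1β and IL-18 (log2 fold change 0.34, adjusted p = 0.322 from edgeR), *Casp4*, the mouse caspase-11 that senses cytosolic LPS (0.49, adjusted p = 0.212), and *Gsdmd*, whose product forms the pore through which they leave (0.23, adjusted p = 0.327). *Casp4* had 318, 907, 1447 and 600 normalized counts in WT and 626, 917, 1904 and 898 in CD1d-KO replicates 1, 2, 3 and 5. The CD1d-KO library was above its WT partner in each pair, least so in pair 2. The gap was widest in pair 1 (1.97-fold), whose CD1d-KO library held *Cd1d1* counts. The lower ones were *Lrrc32*, which encodes the surface anchor GARP of latent TGF-β (-0.54, adjusted p = 0.222), and *Ltbp3*, a latent TGF-β binding protein (-0.49, adjusted p = 0.209). The other genes of TGF-β latency and activation in the list did not share this direction. Log2 fold changes were 0.20 for *Ltbp1*, 0.20 for *Itgb8* and 0.16 for *Thbs1*, and -0.08 for *Itgav*, -0.02 for *Furin* and -0.01 for *Nrros*. Their adjusted p-values ran from 0.444 to 0.980 in edgeR, and *Ltbp1* and *Thbs1* were higher in 4 of 4 pairs. *Lrrc32* had 1263, 1124, 1554 and 1343 normalized counts in WT and 951, 1170, 797 and 736 in CD1d-KO replicates, lower in pairs 1, 3 and 5 and not in pair 2. *Ltbp3* was lower in 4 of 4 pairs, at 0.522 times WT in pair 1 and 0.719 to 0.868 times in the others. Estimates of *Casp4* and *Ltbp3* without replicate 1 are not given here. *Adam17*, the TNF sheddase, had 108 ± 8.81 TPM in WT and 106 ± 8.88 TPM in CD1d-KO (SD, n = 4; log2 fold change -0.05).

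The 17 genes of NF-kB subunits and feedback targets were all tested and 0 were called, with 2 higher and 0 lower at an unadjusted p under 0.05 (beside 12.4% of all tested genes in either direction and 7.35% higher) and a median log2 fold change of 0.14. The 2 were *Socs3*, a feedback inhibitor of IL-6 signalling (log2 fold change 0.32, SE 0.07, adjusted p = 0.148 from edgeR), and *Bcl3*, a nuclear IkB protein (0.21, adjusted p = 0.283). Over the 17 genes, 14 log2 fold changes were positive and 3 negative. In all 4 pairs 8 genes were higher and 1 lower, beside 20.7% of all tested genes with 1 direction in all 4 pairs. The list as a set was not tested. Normalized counts of *Socs3* were 786, 2451, 1861 and 1438 in WT and 964, 3450, 2332 and 1601 in CD1d-KO replicates 1, 2, 3 and 5. *Socs3* followed the same low replicate 1 and high replicate 2 as *Il1b*. Of 14 immediate early genes 13 were tested and 0 called, 1 higher and 2 lower at an unadjusted p under 0.05 (beside 7.35% and 5.01% of all tested genes), with a median of -0.11. *Dusp1*, a phosphatase that ends MAP kinase signalling, had a log2 fold change of 0.44 (adjusted p = 0.113 from edgeR), *Egr2* one of -0.56 (adjusted p = 0.115) and *Jund* one of -0.23 (adjusted p = 0.321). The summed immediate early counts stayed between 21700 and 29600 in all 8 libraries, and were lowest in CD1d-KO replicates 5 and 1.

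Among 26 other cytokine genes 18 were tested and 0 called, 4 higher and 1 lower at an unadjusted p under 0.05 (beside 7.35% and 5.01% of all tested genes), with a median log2 fold change of 0.24. Of the 18, 15 log2 fold changes were positive and 3 negative. In all 4 pairs 6 genes were higher and 1 lower, beside 20.7% of all tested genes with 1 direction in all 4 pairs. This list as a set was not tested. *Il15*, a cytokine that sustains NK and memory T cells, had 14.9, 111, 264 and 81.6 normalized counts in WT and 70.0, 169, 355 and 233 in CD1d-KO replicates 1, 2, 3 and 5 (log2 fold change 1.05, SE 0.26, adjusted p = 0.168 from edgeR). *Tnfsf10*, which encodes TRAIL, had 15.6, 321, 861 and 131 in WT and 101, 404, 985 and 683 in CD1d-KO replicates (1.13, SE 0.40, adjusted p = 0.308). Both were lowest in replicate 1 and highest in replicate 3 of each genotype, as *Il18* and *Il1rn* were, with the CD1d-KO library higher in every pair. The gap was widest in pair 1, whose CD1d-KO library held *Cd1d1* counts. In pairs 1, 2, 3 and 5 the CD1d-KO level was 4.70, 1.53, 1.34 and 2.85 times WT for *Il15* and 6.46, 1.26, 1.14 and 5.22 times for *Tnfsf10*. Estimates of these genes without replicate 1 are not given here. *Tnfsf13b*, which encodes BAFF, had 0.74 (adjusted p = 0.358) and *Tnfsf12*, which encodes TWEAK, -0.46 (adjusted p = 0.352). *Il12a* and *Il23a*, the partners of the p40 chain, were too low to test, at 0.590 ± 0.168 and 0.320 ± 0.228 TPM in WT (SD, n = 4). Without a filter on low counts, and with replicate 1 included, edgeR called *Il15* and *Tnfsf10* (adjusted p = 0.00104 and 0.00401), among 236 of 25377 genes called. In that fit *Egr2*, *Il18bp*, *Lrrc32*, *Dusp1* and *Casp4* of the related lists also had adjusted p-values under 0.01 (0.00069 to 0.00913 from edgeR). They were not called because their fold changes fell short of 1.5, with *Egr2* and *Lrrc32* lower and the others higher in CD1d-KO.

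**Figure D5:**
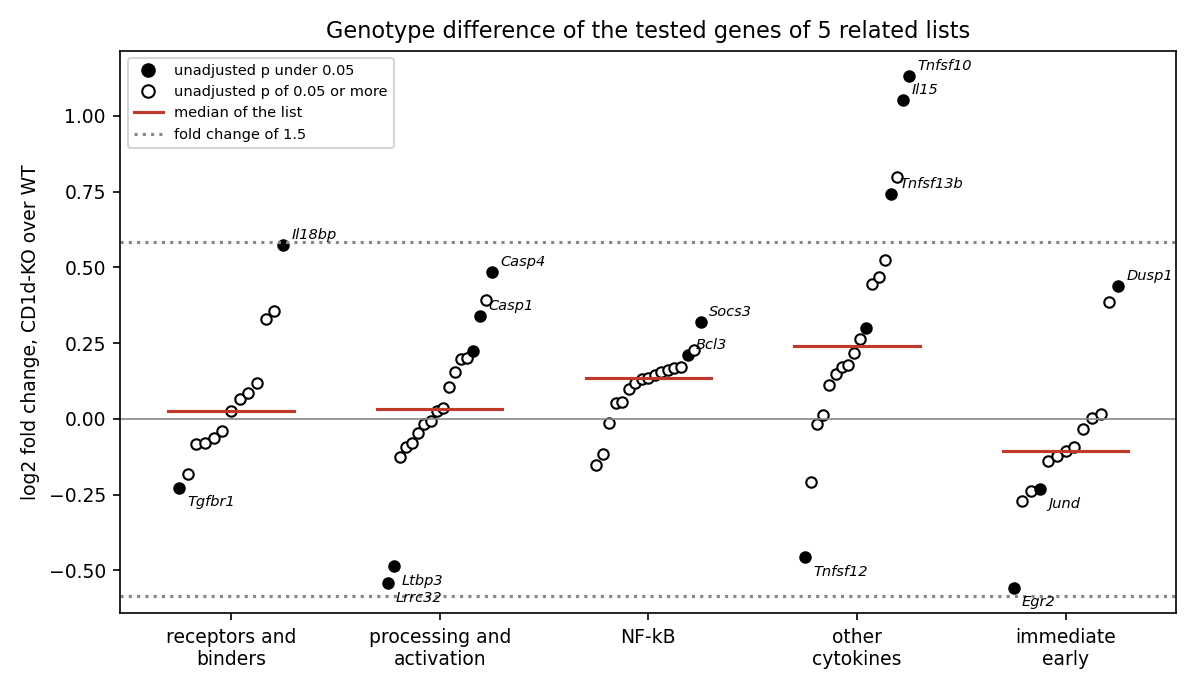
Log2 fold change of CD1d-KO over WT for the tested genes of 5 related lists, 1 point per gene. Filled points have an unadjusted p under 0.05, dotted lines mark a 1.5-fold change, and the list medians, drawn in red, lie between -0.11 and 0.24 with *Tnfsf10* and *Il15* farthest from 0.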

How the data were processed

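The authors trimmed single-end reads with Cutadapt, aligned them to mouse GRCm38 with STAR 2.5.2a and quantified Ensembl genes with RSEM 1.3.0; the strand setting is not given in the sources used here. The deposited files hold expected counts, which the authors left unnormalized, and TPM, which the authors scaled per transcript length and library. Gene symbols came from GENCODE M21, which held 48435 of 48795 gene IDs (99.26%).

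After rounding, low genes were removed by filterByExpr and libraries scaled by TMM, both in edgeR 4.0.16 (R 4.3.3). Normalized counts are scaled to the mean library size. The quasi-likelihood test compared genotypes in a model with genotype and replicate number, the covariates of the study, with Benjamini-Hochberg adjustment over 13040 genes. Fits were also run on simulated counts, which held no replicate effect and so do not show how the replicate block performs. DESeq2 1.42.0, limma 3.58.1 on log2(TPM + 1), other scalings and filters, no replicate block and leaving out each replicate were alternatives. The test of the replicate number and its alternatives were added after seeing the data. Same-numbered libraries deviated together from their group means (r = 0.487, 0.387, 0.505 and 0.207 for numbers 1, 2, 3 and 5), each above 0.1, so the numbers were taken to pair the samples. For number 5 the highest correlation with a library of another number was 0.220, above its own, so its pairing is the least certain. No 2 libraries agreed within sampling noise. Each library was taken as a separate mouse because the study names as many mice as libraries in each genotype, which the labels do not state.

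The cytokine genes and the lists were chosen with earlier results of these data known. Named were all 10 cytokine genes, and their direct receptors and processing enzymes. Up to 4 genes of each list with the smallest unadjusted p under 0.05 were also named, as were the 3 genes most like *Il1b* and *Tnf*. *Gsdmd* and the other genes of TGF-β latency and activation were added after their values were seen. RSEM shares reads among similar genes, and depth limits the low genes *Il10* and *Il12b*.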

Additional observations from a re-analysis of the deposited data

Results flagged for a closer look

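The normalized count of *Cd1d1* in the library labelled CD1d-KO replicate 1 was 60.2, far from the 0 to 1.14 of the other CD1d-KO libraries and just under the WT range of 67.7 to 174. The gap took 0.981 of the range of the group, above the critical value of the Dixon test for 4 samples. Of the 22 groups examined (10 cytokine genes and *Cd1d1* in each genotype), it was the 1 group with such a library. Chance gives about 1 in 20, but that rate cannot be applied to counts near 0 or to genes that vary together. The library is flagged because its *Cd1d1* count goes against its label.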

How the results depend on the processing

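No cytokine gene was called under any of the alternatives run, which included DESeq2, limma and an adjusted p under 0.05 with no fold change threshold. For the 9 tested genes, 101 of 108 fold changes under 12 alternatives kept their direction, and the lowest adjusted p was 0.0947 (*Il18*, no filter). The number of cytokine genes at an unadjusted p under 0.05, 2 in the report, was 1 with limma on log2(TPM + 1), 4 with no filter and 0 without the replicate block, and ran from 0 (without replicate 5) to 3 (without replicate 3) when 1 replicate was left out. The share of all tested genes at that p was 12.4% in the main fit. It is not given here for the alternatives, so their counts cannot be set against it. Without the replicate block the number of called cytokine genes was 0, as with it. With no filter 2 genes of the related lists were called, against 0, among 236 of 25377 genes called. The count of cytokine genes that differed by replicate number, 5, was 7 with DESeq2 and ran from 0 (without replicate 1 or 3) to 6 (without replicate 5) when 1 replicate was left out. The share of all tested genes was 3.93% in the main fit, 13.0% with DESeq2, 0.363% without replicate 1, 0% without replicate 3 and 3.08% without replicate 5.

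The log2 fold change of *Il6* turned to -0.0462 with limma and ran from -0.0959 to 0.190 when 1 replicate was left out. That of *Il1a* was 0.0130 without the replicate block and ran from -0.118 to 0.0985, that of *Il1b* from -0.227 to 0.0803 and that of *Csf1* from -0.0845 to 0.116. The cause was not tested. Depth limits what can be said of *Il12b*, with at most 8 counts in a library.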
